A study of Ovis aries with 30 samples.

Results

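The genes of fatty acid and triglyceride synthesis were followed in brown adipose tissue (BAT) and thyroid tissue of newborn lambs. The list held 38 of the 28524 genes in the deposited count tables, and its members were grouped by their role in the pathway, earlier results of these data being known when they were listed. The lambs were Romney, born as twins, with 1 lamb taken per dam and both sexes included. A group of 6 lambs was kept at 4 °C for 2 days (cold), another 6 were kept at 20 to 22 °C for 2 days (ambient temperature, AT), and 3 control lambs were sampled with neither exposure, at around 24 h of age by the labels and over a range of hours within the first day by the study's methods. BAT came from around the kidneys, and each lamb gave 1 library of each tissue, 30 libraries from 15 lambs. Treated lambs were therefore older than control lambs, so that age and housing cannot be told apart in a comparison with control, and cold against AT was the comparison between lambs of like age. The lambs have no number in the labels that orders them within a group, and they are named here Cold 1 to 6, AT 1 to 6 and Control 1 to 3.

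Fatty acids are built in the cytosol from acetyl-CoA, which comes from citrate that leaves the mitochondrion or from acetate. Grown ruminants take up acetate from the rumen, and these lambs were newborn. Acetyl-CoA is carboxylated to malonyl-CoA, the chain is assembled by fatty acid synthase, and elongases and desaturases then lengthen the chain or add double bonds. Triglyceride is made when acyl chains are joined step by step to glycerol 3-phosphate, and brown adipocytes store it in many small droplets whose fatty acids fuel heat production. The members were taken in that order. The carbon supply comprised SLC25A1 (the mitochondrial citrate carrier), ACLY (which splits citrate), ACSS1 and ACSS2 (which activate acetate in the mitochondrion and in the cytosol) and ME1 (malic enzyme, a source of NADPH). ACACA and ACACB encode the acetyl-CoA carboxylases and FASN the synthase. ELOVL1, ELOVL3, ELOVL5, ELOVL6 and ELOVL7 encode elongases, and SCD, SCD5, FADS1 and FADS2 desaturases. SREBF1 and MLXIPL encode the lipogenic transcription factors SREBP-1 and ChREBP, and THRSP a small protein that is induced together with the lipogenic enzymes by thyroid hormone and carbohydrate. PCK1, PCK2, GPD1, GK and AQP7 supply or move glycerol and glycerol 3-phosphate. GPAM, GPAT3 and GPAT4 add the first acyl chain, AGPAT1 to AGPAT3 the next, LPIN1 to LPIN3 remove the phosphate, DGAT1 and DGAT2 add the last chain, and MOGAT1 acylates monoacylglycerol. BSCL2 encodes seipin, which shapes lipid droplets.

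The libraries held 31556500 to 37025998 assigned reads in BAT and 25062784 to 30124871 in thyroid tissue. In BAT, 43.8 to 76.5% of those reads belonged to 2 loci, LOC114112617 and LOC114115287, which left 8093700 to 18276329 reads for all other genes, and in thyroid tissue these loci took 5.18 to 27.8%. A gene was tested where at least 10 libraries of the tissue had at least 10 reads, which kept 14905 genes in BAT, 16122 in thyroid tissue and 17021 over both tissues. Of the 38 members, 36 were tested in BAT, 37 in thyroid tissue and 37 over both. ELOVL3 passed in neither tissue and MOGAT1 did not pass in BAT. All comparisons with control used Control 1 and Control 3, the lambs kept by the study, and the values of Control 2 are given beside them. A call required an absolute log2 fold change (log2FC) of at least 1 and an adjusted p-value under 0.05 in edgeR's quasi-likelihood test over all genes tested. Values per lamb are counts divided by a size factor from ACTB, RPL19 and HUWE1 (normalized counts), with size factors set within each tissue unless stated. In these bulk samples, fewer cells of a type and less RNA per cell cannot be told apart.

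Marker genes of the tissues were read before the members. The thyroid libraries held TG, the thyroglobulin gene, at 1216230 to 5344180 normalized counts, against 9.5 to 1108 in BAT. The 8 brown adipocyte markers summed in BAT to 6172 to 18169 in the cold lambs, 1542 to 18204 in the AT lambs and 24507 to 30234 in the 2 controls used. UCP1, the uncoupling protein of brown fat, was one of them and stood at 2906 to 12407 in the cold lambs, 195 to 12953 in the AT lambs, and 22462, 87348 and 20586 in Control 1, Control 2 and Control 3. Other markers of the list followed it in part or not at all. PPARGC1A had 1429 and 597 in Control 1 and Control 3, against 429 to 1244 in the cold and 121.5 to 697 in the AT lambs. EBF2 had 3315 and 1444 against 965 to 1444.3 and 799.5 to 2070, and DIO2 781 and 534 against 119.5 to 998 and 19.5 to 1015. LHX8 had 21.4 and 10.9 against 1.9 to 15.6 and 0 to 22.5. Control 1 was thus the highest of the lambs used for PPARGC1A and EBF2, with overlap of the groups. PRDM16, a regulator of brown fat identity, had 94.9 and 131 in the controls used against 107 to 327 in the cold and 148 to 364 in the AT lambs. CIDEA, a lipid droplet protein, had 2131 and 1203 against 969.8 to 3088 and 244 to 4226, with overlap, and ZIC1 was at 0 in every BAT library. The fibroblast and dividing cell sums of the controls used lay below those of all treated lambs in BAT (22831 to 23823 against 26265 to 143556, and 171 to 288 against 421 to 2322). Above the AT lambs alone lay their endothelial (47288 to 52146 against 30974 to 41898) and smooth muscle sums (15086 to 26856 against 6915 to 12985.5). Above the cold lambs alone lay those of skeletal muscle (223 to 405 against 103 to 179) and adrenal cortex (159 to 222 against 25.1 to 151). In BAT the library of AT 6 stood apart. Its 9 adipocyte markers summed to 34437, against 77744 to 138957 in the other AT lambs and 52015 to 102508 in the cold lambs, and 8 of the 9 were at their lowest of 14 lambs there. Its 5 fibroblast markers summed to 143556, the highest sum, against 26938 to 85253 in the cold lambs. In thyroid tissue the skeletal muscle markers summed to 3328390 in AT 3 and 289796 in Control 1, against 105 to 3958 in the other 13 libraries. The parathyroid markers summed to 9217 in the thyroid library of Control 2, with PTH at 7229, against sums of 31.9 to 1253 in the other thyroid libraries. In thyroid tissue the follicular cell markers summed to 2882100 to 5891910 in the 2 controls used, against 1803560 to 2716640 in the cold and 1329120 to 2434510 in the AT lambs, and the fibroblast markers to 10290.3 to 12749, 24494 to 104630 and 27830.4 to 115760. Of the other lists, the brown adipocyte sum was also higher in the thyroid tissue of the controls used than in every treated lamb (2076 to 3221 against 1042 to 1712), while those of macrophages (1022 to 1085 against 1308 to 3436), T cells (55.6 to 60.8 against 67.4 to 903), dividing cells (123 to 186 against 245 to 1469) and adrenal cortex (31.5 to 34.4 against 39.7 to 113) were lower. The endothelial sum of 20229 to 30124 in those controls was above the 11466 to 16478 of the cold lambs and overlapped the 9261 to 21314 of the AT lambs. The part of these differences in the results on the members was not tested beyond the fits that leave the named libraries out.

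Levels between genes were compared per kb of exon, on a scale shared by the 2 tissues. In BAT the highest median over 14 lambs belonged to DGAT1, the acyltransferase of the last step, at 4921 normalized counts per kb (range 1478 to 12673). It was followed by GPAT4 at 2853 (813 to 4593), ACSS2 at 2329 (809 to 5689), AGPAT2 at 2109 (727 to 4104) and DGAT2 at 1238 (219 to 3381). Of the 5 members with the highest BAT medians, 4 thus acted in triglyceride assembly and the other activated acetate, although their ranges over lambs overlapped from each gene to the next. The chain-building enzymes were lower, with medians of 437 for FASN, 355 for ACACA and 77.8 for ACACB. At the carbon supply, ACSS2 and ACSS1 (578) both had higher medians than ACLY (333), which splits citrate. SLC25A1, the citrate carrier, stood at 870, between ACSS2 and ACSS1. Among regulators the medians were 546 for THRSP, 325 for SREBF1 and 225 for MLXIPL. The lowest of the members tested in BAT was SCD5 at 50.3. In thyroid tissue the order began with SLC25A1 at 932, AGPAT2 at 565, DGAT1 at 529.6, GPAT4 at 515 and ELOVL1 at 451, so that 3 of its 5 highest members were also among the 5 highest in BAT. PCK1 was the lowest of the members tested there, at 6.01.

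**Figure D1:**
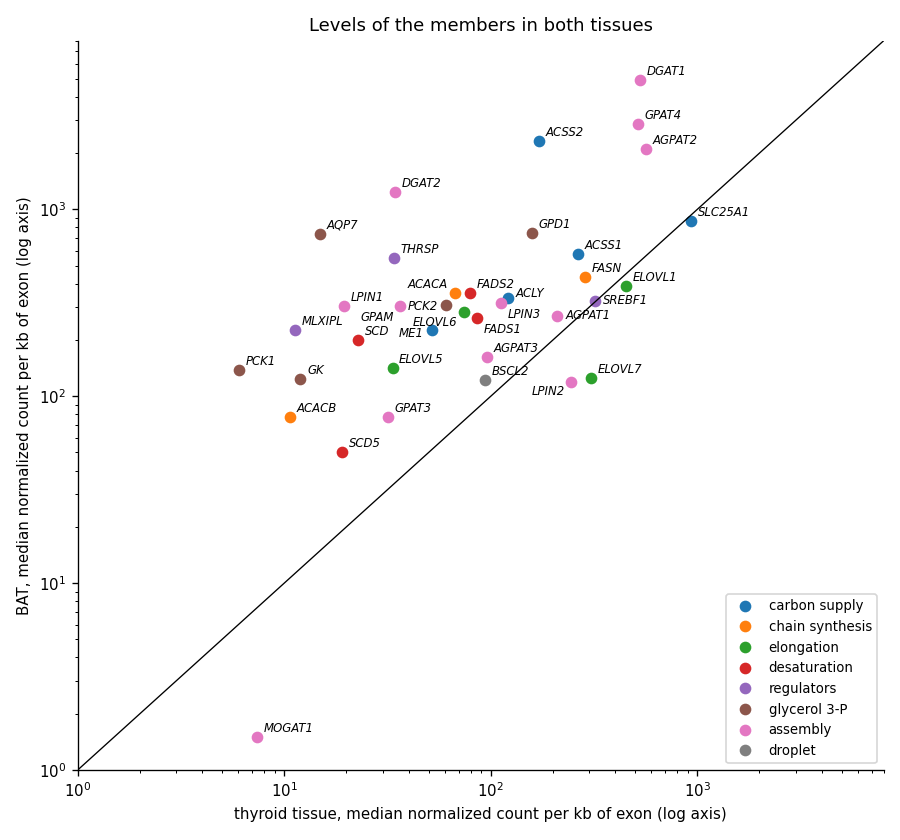
Median normalized count per kb of exon of each member in thyroid tissue (x axis) and BAT (y axis) over 14 lambs, both axes logarithmic, coloured by role, with the line of equal levels. Most members lie above the line, AQP7, DGAT2 and PCK1 far above it and LPIN2, ELOVL7 and MOGAT1 below it, and ELOVL3 is not drawn because its BAT median was 0.

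BAT and thyroid tissue of the same lamb were then compared, with the lamb as a block. Of the 37 members tested, 26 were higher in BAT and 3 lower, against 25.5% of all genes higher and 14.1% lower by the same call. The median log2FC of the members was 1.72, against 0.25 over all genes. The largest estimates were in glycerol handling and in the last acylation, given here as mean normalized counts over 14 lambs on the shared scale. AQP7, the channel through which glycerol leaves or enters fat cells, averaged 3537 in BAT and 117 in thyroid tissue (log2FC 5.87, 58.5-fold, adjusted p-value 5.9e-07). DGAT2 averaged 3629 in BAT and 128 in thyroid tissue (41.7-fold, adjusted p-value 5.41e-07), and PCK1, which makes glycerol 3-phosphate precursors from pyruvate and lactate, averaged 634 in BAT and 31.4 in thyroid tissue (25.7-fold, adjusted p-value 3.78e-05). All 14 lambs had more of each of these transcripts in BAT. MLXIPL was 20.1-fold, GK (glycerol kinase) 11.2-fold, LPIN1 9.58-fold, DGAT1 9.47-fold and ACSS2 8.34-fold higher in BAT, again in 14 of 14 lambs. SCD was 7.25-fold, GPAM 7.24-fold and THRSP 6.79-fold higher, THRSP in 13 of 14 lambs. FASN passed the adjusted p-value with a log2FC of 0.55 (adjusted p-value 0.00169) but not the size required. SREBF1 had a log2FC of -0.02 with an SE of 0.23 and was higher in BAT in 6 of 14 lambs, and BSCL2 of 0.23 with an SE of 0.13. Lower in BAT were MOGAT1 (log2FC -1.89), the elongase ELOVL7 (-1.28) and the phosphatase LPIN2 (-1.18). LPIN1 and LPIN2, which catalyse the same step, were thus called in opposite directions between the tissues, with LPIN1 higher in BAT in 14 and LPIN2 in 0 of 14 lambs. With size factors from all genes in place of the 3 reference genes, the median of all genes moved from 0.25 to 0.08 (TMM) or -0.04 (median of ratios) and 28 or 27 members were called, against 38.3% or 38.1% of all genes (39.6% with the reference genes).

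Within BAT, lambs held in the cold were compared with lambs held at ambient temperature for the same 2 days. No member passed the call, against 0.275% of all genes, and by DESeq2 the number of members was 0 as well, against 0.993%. At an unadjusted p-value under 0.05 there were 7 of 36 members, against 12.3% of all genes, and the lowest adjusted p-value among the 36 was 0.237. The estimate was negative for 28 of the 36 members (25 with TMM or median-of-ratios scaling), with a median log2FC of -0.24 against -0.05 over all genes. No member had groups that did not overlap, against 0.691% of all genes.

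The 4 members with the lowest p-values were GK, SCD, AQP7 and MLXIPL. GK (chromosome X, 31686548 to 31765299, plus strand, on Oar_rambouillet_v1.0 like all positions given here), which phosphorylates free glycerol so that it can be used again, had normalized counts between 204 and 857 with a median of 537 in the cold lambs and between 54.8 and 382 with a median of 190.3 in the AT lambs. Cold 6 lay within the AT range and the other 5 cold lambs above it. The log2FC was 1.28 (SE 0.40, adjusted p-value 0.237, exact permutation p-value 0.0152, two-sided, unadjusted). SCD (chromosome 22, 23879130 to 23891139, plus strand), the desaturase that makes oleate from stearate, lay between 74.3 and 403 with a median of 167 in the cold lambs and between 251 and 870.3 with a median of 356 in the AT lambs. Cold 2 and Cold 3 reached the AT range, and the other 4 cold lambs stood below it. Its log2FC was -1.35 (SE 0.44, adjusted p-value 0.266, exact permutation p-value 0.0195, two-sided, unadjusted). AQP7 (chromosome 2, 39793231 to 39811366, plus strand) had 1095, 1512 and 2765 normalized counts as the lowest, median and highest of the cold lambs and 825, 3101 and 4823 of the AT lambs. MLXIPL (chromosome 24, 34327262 to 34345791, plus strand) had 237, 399 and 479.7 in the cold and 128, 799 and 1180 in the AT lambs, in the same order. For both genes the lowest AT value was that of AT 6, which lay below every cold lamb. Their log2FC values were -0.92 (SE 0.33) and -0.94 (SE 0.40), with adjusted p-values of 0.303 and 0.365.

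AT 6 weighed on this comparison. It was the lowest of 14 lambs for 21 of the 36 members, and no other lamb was lowest for more than 4. The share over all genes was not counted. Its size factor was 1.84 from the reference genes, against 1.65 with TMM and 1.67 with median-of-ratios scaling, and a higher factor lowers every normalized count of that library. When AT 6 was left out, 3 members were called, all lower in the cold lambs, and 0.674% of all genes were called in that fit. AQP7 then had a log2FC of -1.13 (adjusted p-value 0.0341), MLXIPL of -1.18 (0.0423) and ACSS2, the cytosolic enzyme that activates acetate, of -1.03 (0.0495). ACSS2 (chromosome 13, 66988257 to 67031305, plus strand) had 2078, 3580.2 and 5103 normalized counts as the lowest, median and highest of the cold lambs, and 1445, 6499 and 10595 of the AT lambs with AT 6 the lowest. The next lowest AT value of ACSS2 was 4827 in AT 4, which lay below the 5103 of Cold 1. No lamb other than AT 6 gave a called member when it was left out.

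**Figure D2:**
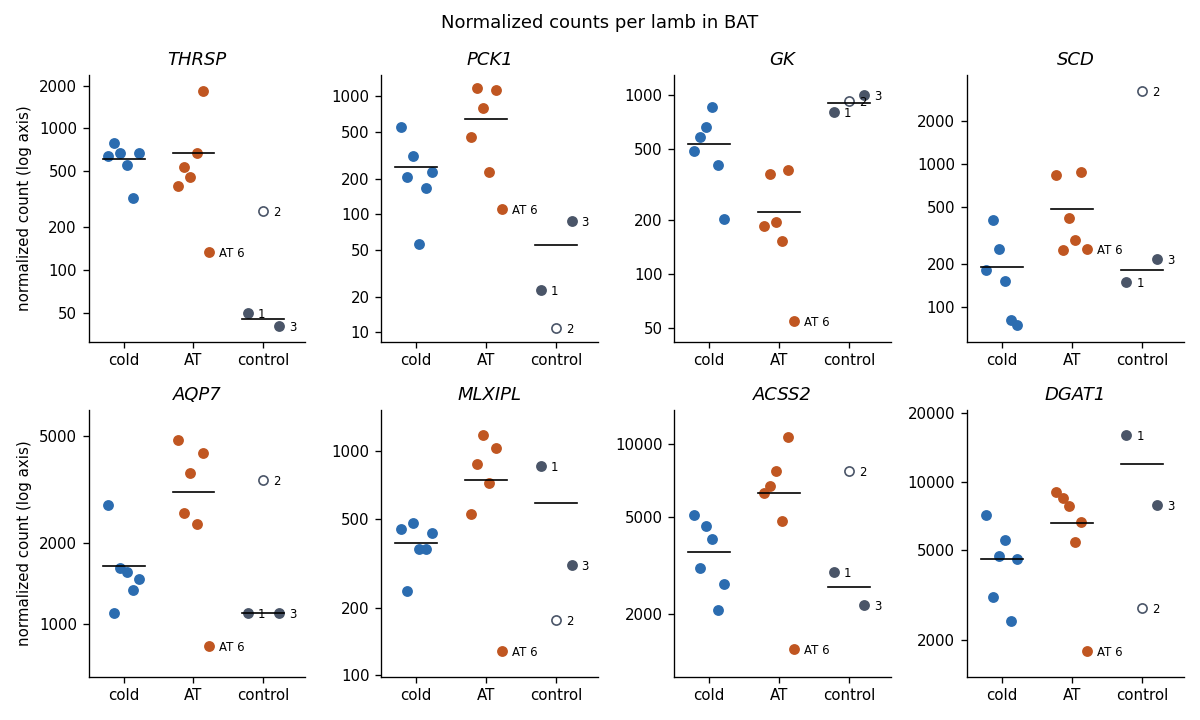
Normalized counts in BAT of 8 members, with 1 point per lamb on a logarithmic axis, by group, and lines at the mean of the lambs used. Filled control points are Control 1 and Control 3, the open point is Control 2, and AT 6 is marked. THRSP of both controls used lies below all 12 treated lambs, while AT 6 lies at the foot of the AT lambs for THRSP, PCK1, GK, AQP7, MLXIPL, ACSS2 and DGAT1.

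By role, the estimates of cold against AT ran from -0.80 for ACSS2 to -0.29 for ME1 in the carbon supply, from -0.65 for ACACA to -0.10 for FASN in chain synthesis, from -0.86 for ELOVL6 to 0.05 for ELOVL5 among the 4 elongases tested and from -1.35 for SCD to 0.19 for SCD5 among the desaturases. The regulators ran from -0.94 for MLXIPL to -0.14 for THRSP, the glycerol genes from -1.37 for PCK1 to 1.28 for GK and the 11 assembly genes tested from -0.86 for DGAT2 to 0.43 for AGPAT3, while BSCL2 stood at -0.21. All 5 carbon supply members and all 3 of chain synthesis had negative estimates, none of which passed. For FASN the lowest, median and highest counts were 1504, 2214 and 2657 in the cold and 1551, 2189 and 3326 in the AT lambs, and its interval of 2 SE on either side of the log2FC ran from -0.51 to 0.30. A change of 2-fold in either direction lay outside this interval. The interval of ACACA ran from -1.30 to 0.01, that of DGAT2 from -1.95 to 0.22 and that of THRSP from -1.02 to 0.75. A 2-fold rise in the cold lambs lay outside these intervals. A 2-fold fall lay within them and was not resolved for these genes at this spread.

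**Figure D3:**
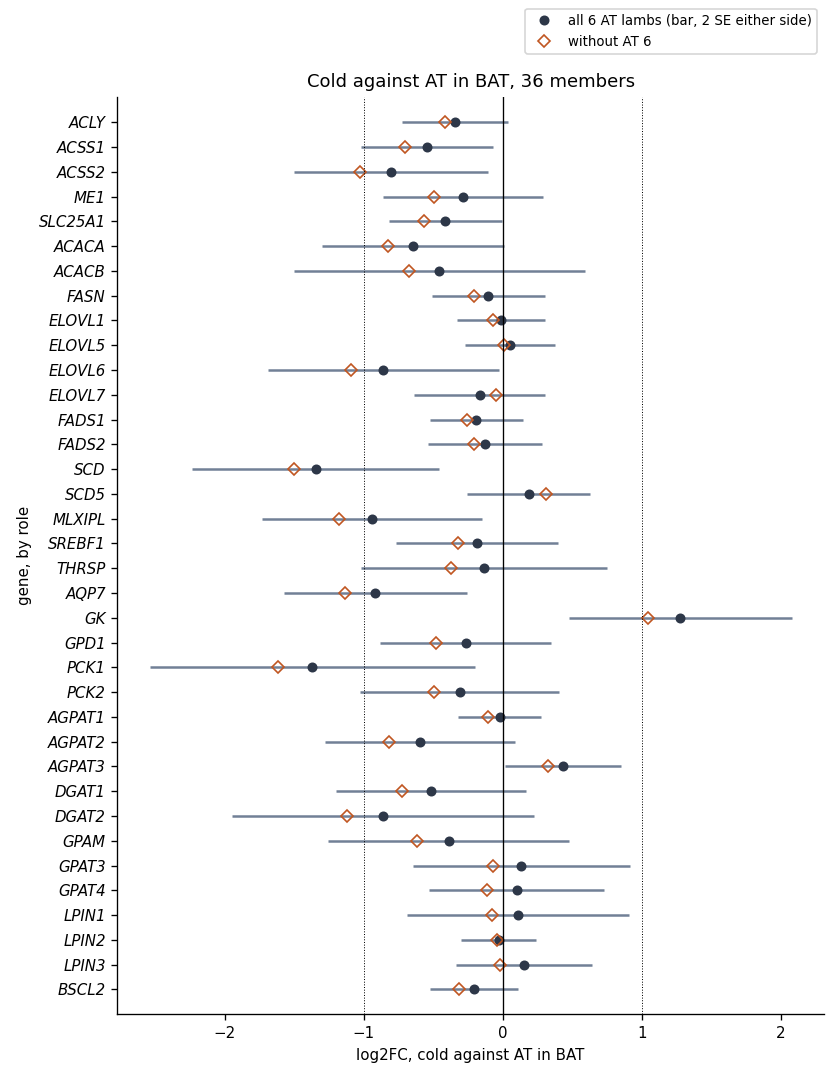
log2FC of cold against AT in BAT for the 36 members tested, with bars of 2 SE on either side, diamonds for the estimates without AT 6 and dotted lines at -1 and 1. Of the 36 estimates 28 lie below 0, and without AT 6 those of AQP7, MLXIPL and ACSS2 lie below -1 and pass the adjusted p-value.

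The treated lambs were next compared with the younger control lambs in BAT. In the cold lambs 1 of 36 members was called, against 1.21% of all genes, and in the AT lambs 3 of 36 were, against 6.07%. These comparisons share the controls. The member called in each was THRSP (chromosome 21, 19667217 to 19672407, minus strand). Its normalized counts were between 325 and 793 with a median of 654 in the cold lambs and between 135 and 1839 with a median of 494 in the AT lambs, against 49.5 in Control 1 and 40.6 in Control 3. All 12 treated lambs were above both, and Control 2, not used, stood at 260.3, above AT 6 alone. The cold lambs had a mean of 607 ± 158 (SD, n = 6) against 45 ± 6.3 (SD, n = 2) in the controls, a 13.5-fold difference (log2FC 3.76, SE 0.82, adjusted p-value 0.0396 by edgeR). The exact permutation p-value was 0.0357 (two-sided), the smallest that 6 lambs against 2 can give. In the AT lambs the mean was 670.4 ± 599 (SD, n = 6), 14.9-fold above the controls (log2FC 3.90, SE 0.83, adjusted p-value 0.0129). The calls rest on the controls: with Controls 2 and 3 in use, and then Controls 1 and 2, THRSP had log2FC values of 2.11 and 2.05 in the cold lambs (adjusted p-values 0.124 and 0.112) and 2.23 and 2.17 in the AT lambs (0.0833 and 0.0836). The call in the cold lambs was also lost when Cold 1, Cold 2, Cold 3 or Cold 6 was left out, with adjusted p-values of 0.0541, 0.0602, 0.0524 and 0.057, with all 3 controls (0.051) and without the filter on low counts (0.0711). In the AT lambs it was lost when only AT and control lambs were fitted (0.0592).

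A pair of glycerol genes, PCK1 and GK, were called in opposite directions in the AT lambs. PCK1 (chromosome 13, 60935973 to 60942111, minus strand) lay between 111 and 1173 with a median of 626, against 22.7 in Control 1, 88.2 in Control 3 and 10.8 in Control 2. Every AT lamb was above every control, AT 6 by the least at 111. The mean was 648 ± 454 (SD, n = 6) against 55.4 ± 46.3 (SD, n = 2), 11.3-fold higher (log2FC 3.49, SE 1.03, adjusted p-value 0.0482). PCK1 lost its call when any of 8 lambs was left out (Cold 2, 3, 5 or 6, or AT 1, 2, 3 or 5), with adjusted p-values of 0.0551 to 0.0727, without the filter on low counts (0.101) and when only AT and control lambs were fitted (0.0897). PCK1 of the cold lambs lay between 56.3 and 545 with a median of 218, with Cold 4 between the controls, and its log2FC against control of 2.12 did not pass (adjusted p-value 0.258). GK was lower in the AT lambs, at between 54.8 and 382 with a median of 190.3, than in Control 1 at 806, Control 2 at 927 and Control 3 at 995, with no overlap. Means were 222 ± 126 (SD, n = 6) and 901 ± 134 (SD, n = 2), 4.09-fold lower (log2FC -2.03, SE 0.51, adjusted p-value 0.0235). This call held with each lamb left out in turn and with Control 2 replacing either control, and was lost when only the AT and control lambs were fitted (adjusted p-value 0.0548). The cold lambs, with a mean of 534, had a log2FC against control of -0.76 (SE 0.53, adjusted p-value 0.479).

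With other controls the calls in BAT changed. With Controls 2 and 3 in use, ME1, ACLY, ELOVL5, BSCL2 and SCD were called in the cold lambs, all lower than in the controls (5.94% of all genes were called), and with Controls 1 and 2 the same 5 and PCK1, which was higher (6.64%). In the AT lambs the calls were ME1, PCK1, ELOVL5 and GK (9.21%) with Controls 2 and 3, and these 4 and ACLY (8.14%) with Controls 1 and 2. With Control 1 and Control 3, the other members did not pass against control in BAT. The highest counts of DGAT1 were those of a control: it had 15988 and 7894 normalized counts in Control 1 and Control 3 but 2756 in Control 2, and between 2422 and 7122 with a median of 4628 in the cold lambs (log2FC -1.39, adjusted p-value 0.117). Without AT 6 in the shared fit it was called (-1.42, 0.0292), as 1 of 2 members, with 2.76% of all genes called. SCD had 149.8 and 215 in the controls used and 3216 in Control 2, above all 14 other lambs. In the cold lambs, 1 member lay wholly above the controls used and 6 wholly below (DGAT1, DGAT2, ELOVL6, GPAT3, LPIN2 and AGPAT1), against 24.6% of all genes that did not overlap in either direction. In the AT lambs 3 lay above (THRSP, PCK1 and SCD) and 1 below (GK), against 24.3%. By role, the estimates in the AT lambs ran from -0.29 for ACLY to 1.28 for ACSS2 in the carbon supply, from -0.15 for FASN to 0.40 for ACACB in chain synthesis, from -0.38 for ELOVL5 to -0.11 for ELOVL7 among elongases, from 0.02 for FADS2 to 1.40 for SCD among desaturases and from -1.005 for GPAT3 to 0.76 for LPIN1 in assembly, and in the cold lambs from -0.64 for ACLY to 0.48 for ACSS2, from -0.78 for ACACA to -0.06 for ACACB, from -1.05 for ELOVL6 to -0.23 for ELOVL1, from -0.11 for FADS2 to 0.35 for SCD5 and from -1.42 for DGAT2 to 0.86 for LPIN1 in the same order. The median log2FC of the members was -0.22 in the cold and -0.05 in the AT lambs, against -0.10 and -0.03 over all genes. When AT 6 was left out, 5 members and 8.07% of all genes were called in the AT lambs, with AQP7 (log2FC 1.68, adjusted p-value 0.0089) and ACSS2 (1.47, 0.0169) added, both higher than in the controls. ELOVL3, the elongase of very long chains in brown fat, was not tested in BAT, because the filter required 10 reads in 10 libraries. A gene present in the controls alone cannot pass that filter. ELOVL3 had 16 and 13.3 normalized counts in Control 1 and Control 3, 0 in Control 2, and at most 1.9 in any treated lamb.

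**Figure D4:**
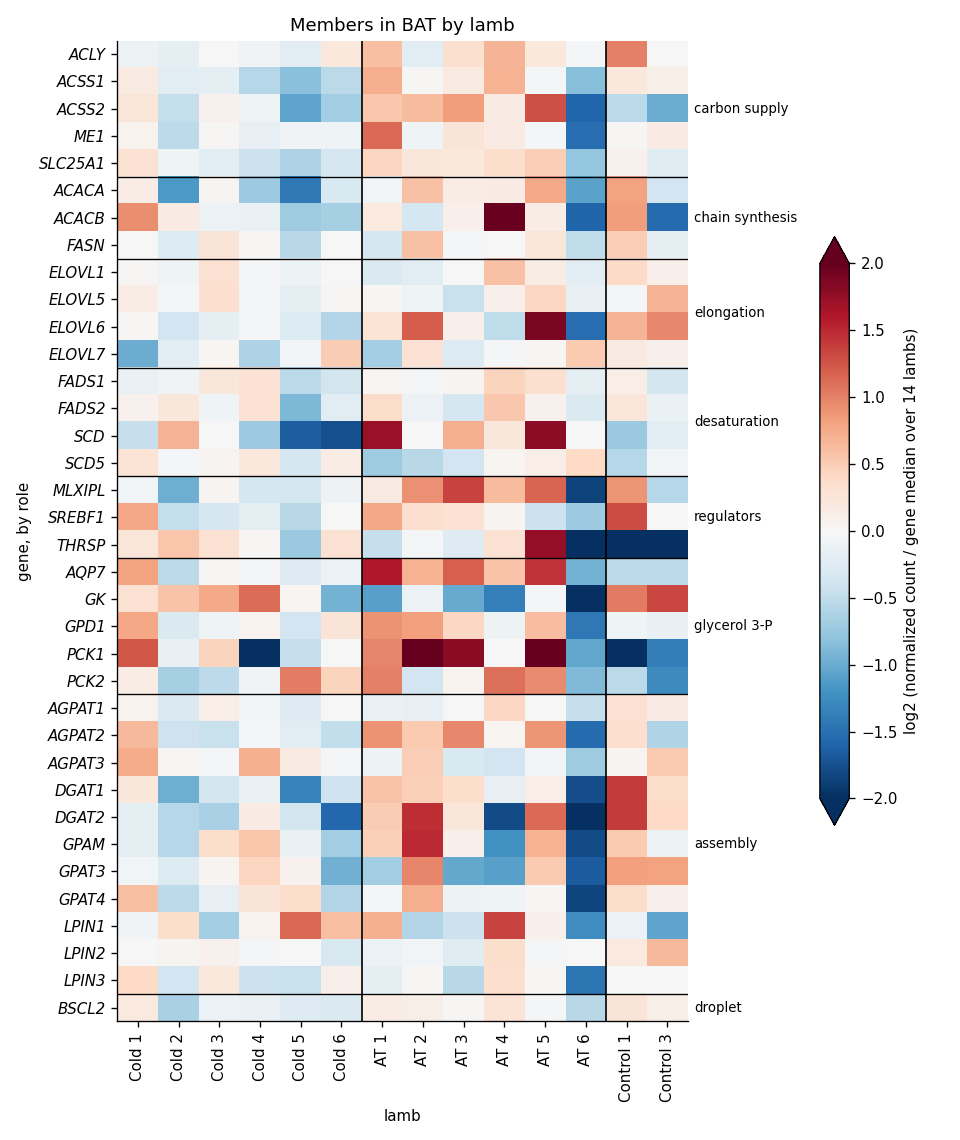
Normalized counts of the 36 members tested in BAT (rows, by role) in 14 lambs (columns, by group), as log2 of the count over the gene's median, with colours limited to -2 and 2. The column of AT 6 is low for most members, the THRSP row is low in both controls, and GK is high in the controls and low in the AT lambs.

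In thyroid tissue, cold and AT lambs did not differ in any member by the call. The number of genes called was 0, that is 0% of all genes tested, by edgeR, with 870 genes and 4 members at an unadjusted p-value under 0.05, and DESeq2 called 0 members. The lowest adjusted p-value among the members was 0.911. The 4 members were AQP7, ACACB, PCK2 and ACSS2, with log2FC values of -2.09, -1.82, -1.21 and -0.57, and for each the highest AT value was that of AT 3, the library with the highest skeletal muscle sum. No member had groups that did not overlap, against 0.192% of all genes. AT 3 held 10178 normalized counts of GPD1, the enzyme that makes glycerol 3-phosphate from a glycolytic intermediate, against 1304 to 1830.4 in the other AT lambs.

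Against control, thyroid tissue of the cold lambs had 7 members called (8.04% of all genes were) and that of the AT lambs 6 (7.8%), every one of them lower than in the controls. These comparisons share the controls too. By adjusted p-value alone, 10 and 9 of 37 members were lower, against 16.9% and 18.7% of all genes. The median log2FC of the members was -0.62 in the cold and -0.44 in the AT lambs, against -0.28 over all genes in each. In the cold lambs 2 members lay wholly above and 11 wholly below the controls used, against 34.6% of all genes not overlapping in either direction, and in the AT lambs 1 and 6, against 27.3%. Control 3 had the highest count of 14 lambs for 21 of the 37 members, and the share over all genes was not counted. Its size factor was 0.756 from the reference genes, against 1.01 with TMM and 1.02 with median-of-ratios scaling. A lower factor raises the normalized counts of every gene of that library. With TMM or median-of-ratios scaling, the median of all genes moved from -0.28 to 0.02 in the cold and 0.05 in the AT lambs, 24 members in place of 29 and 20 in place of 28 had negative estimates, and 4 and 1 members were called, against 4.91% and 4.61% of all genes with TMM.

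The carbon supply held 3 of the calls, among them both genes that activate acetate. ACSS1 (chromosome 13, 44116557 to 44160602, minus strand), the mitochondrial enzyme, had normalized counts between 1002 and 2369 with a median of 1460.4 in the cold lambs and between 870.1 and 1776 with a median of 1182 in the AT lambs, against 2041 in Control 1, 7814 in Control 2 and 7639 in Control 3. Controls 2 and 3 lay far above all treated lambs, and Control 1 above all but Cold 2. The test gave log2FC -1.65 in the cold lambs (SE 0.38, 3.14-fold lower, adjusted p-value 0.0108) and -1.95 in the AT lambs (SE 0.37, 3.85-fold lower, adjusted p-value 0.0041). ACSS2 lay between 542 and 923 with a median of 723 in the cold lambs and between 629 and 2021 with a median of 893 in the AT lambs, against 1431 in Control 1, 664 in Control 2 and 2974 in Control 3. The controls used were above every cold lamb, but AT 3 was above Control 1 and Control 2 lay within the cold range. The result was log2FC -1.63 in the cold lambs (SE 0.35, 3.1-fold lower, adjusted p-value 0.00755) and -1.06 in the AT lambs (SE 0.35, 2.08-fold lower, adjusted p-value 0.0458). With Control 2 in place of Control 3, the log2FC was -0.56 in the cold lambs (adjusted p-value 0.322) and 0.01 in the AT lambs (0.988). These calls were thus lost on that exchange, and no fit left out Control 3 without entering Control 2. ME1 (chromosome 8, 11614799 to 11823911, minus strand) lay between 179.8 and 451 with a median of 255 in the cold lambs and between 166 and 870.1 with a median of 249 in the AT lambs, against 1098 in Control 1, 149 in Control 2 and 1139 in Control 3. Control 1 and Control 3 stood above all treated lambs and Control 2 below them. The differences were log2FC -1.99 in the cold lambs (SE 0.50, 3.98-fold lower, adjusted p-value 0.0167) and -1.76 in the AT lambs (SE 0.51, 3.39-fold lower, adjusted p-value 0.0259), and with the muscle-bearing libraries AT 3 and Control 1 out and Control 2 in, the adjusted p-values were 0.113 and 0.0538.

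The other calls were in elongation and in assembly. ELOVL5 (chromosome 20, 27006988 to 27073102, minus strand), an elongase of polyunsaturated chains, lay between 199 and 267 with a median of 224 in the cold lambs and between 171 and 321 with a median of 306 in the AT lambs, against 393 in Control 1, 376 in Control 2 and 569 in Control 3. All 3 controls were above all treated lambs. It was called in the cold lambs (log2FC -1.07, SE 0.26, adjusted p-value 0.0126) and fell short of the size required in the AT lambs (log2FC -0.84, adjusted p-value 0.0322). LPIN2 (chromosome 23, 42336659 to 42415246, minus strand) lay between 1782 and 3001 with a median of 2464 in the cold lambs and between 1599 and 2493 with a median of 2123 in the AT lambs, and again all 3 controls were higher, with 3961 in Control 1, 3958 in Control 2 and 5957 in Control 3. Its values were log2FC -1.01 in the cold lambs (SE 0.21, 2.02-fold lower, adjusted p-value 0.00674) and -1.24 in the AT lambs (SE 0.21, 2.37-fold lower, adjusted p-value 0.00216). LPIN1 (chromosome 3, 21243542 to 21371164, plus strand) differed among the controls, with 1793 in Control 1, 1147 in Control 2 and 147 in Control 3. Treated lambs lay between 152 and 193 with a median of 172 in the cold lambs and between 143 and 523 with a median of 211 in the AT lambs, so that Control 3 was below all but 1 of them while Control 1 and Control 2 were above all. The test gave log2FC -2.50 in the cold lambs (SE 0.57, 5.67-fold lower, adjusted p-value 0.0107) and -1.95 in the AT lambs (SE 0.57, 3.86-fold lower, adjusted p-value 0.0286). AGPAT2 (chromosome 3, 2877144 to 2889308, plus strand) had 2069.6 in Control 1, 1284 in Control 2 and 7164 in Control 3, against between 1077 and 2407 with a median of 2015 in the cold lambs and between 1508 and 2547 with a median of 1996 in the AT lambs. Only Control 3 was above the treated lambs. The fit gave log2FC -1.31 in the cold lambs (SE 0.34, 2.49-fold lower, adjusted p-value 0.0191) and -1.21 in the AT lambs (SE 0.35, 2.32-fold lower, adjusted p-value 0.0239). With Control 2 in place of Control 3 its log2FC turned to 0.14 (adjusted p-value 0.775) and 0.25 (0.614).

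**Figure D5:**
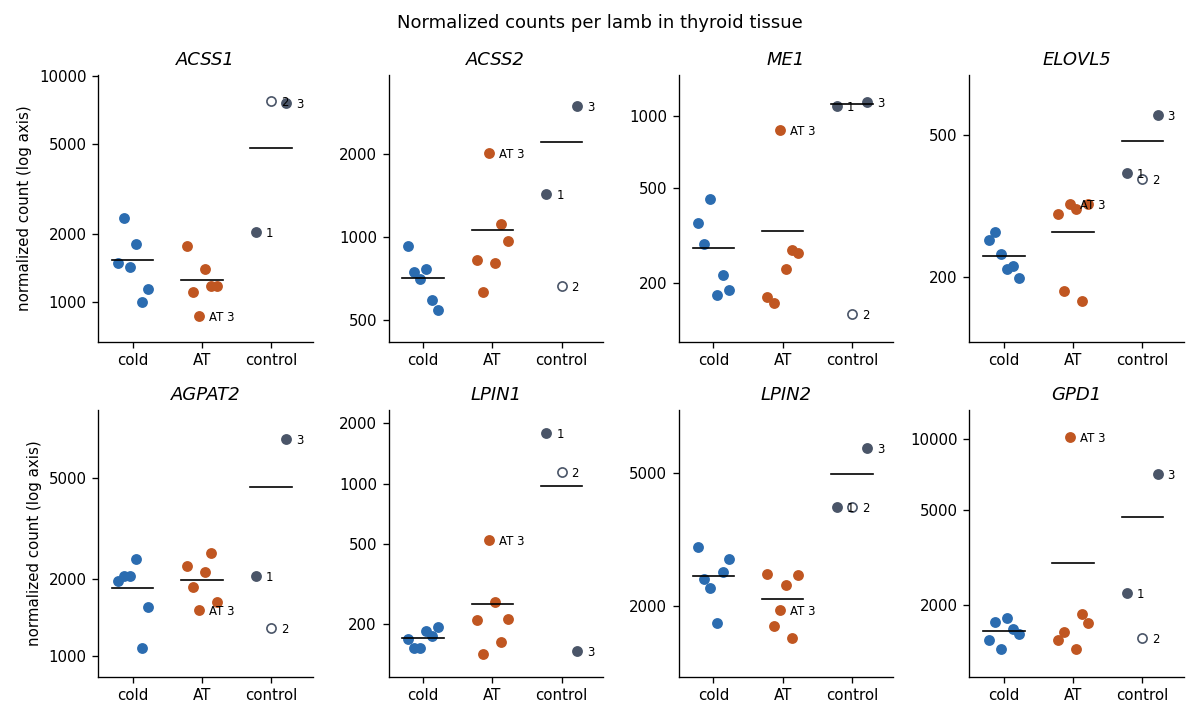
Normalized counts in thyroid tissue of the 7 members called against control and of GPD1, with 1 point per lamb on a logarithmic axis, by group, and lines at the mean of the lambs used. The controls are numbered, the open one is Control 2, and AT 3 is marked. All 3 controls lie above every treated lamb for ELOVL5 and LPIN2, and Control 3 alone does for AGPAT2.

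How far these calls depend on single lambs was read from the fits that left each out. In fits without Control 1 or Control 3, Control 2 was entered, whose thyroid library held the highest parathyroid sum. In the cold lambs ACSS2, ELOVL5 and AGPAT2 lost their calls without Control 3 (adjusted p-values 0.322, 0.0645 and 0.775), AGPAT2 and ME1 without Control 1 (0.0619 and 0.228) and ME1 without Control 3 (0.251), each time with Control 2 entered. LPIN2 kept its adjusted p-value in the cold lambs but fell under the size required without Control 3, Cold 3, Cold 4 or AT 2, with log2FC values of -0.69, -0.99, -0.95 and -0.996. In the AT lambs the call of ACSS2 held in 3 of 23 alternatives, and among fits with 1 lamb left out only without AT 3 or Cold 1. Those of AGPAT2 and ME1 were lost without Control 1 (0.0928 and 0.341) or Control 3 (0.614 and 0.387), that of LPIN1 without Control 1, AT 2, AT 5 or AT 6 (0.0942, 0.0533, 0.0538 and 0.0509), and LPIN2 fell under the size required without Control 3 (log2FC -0.92). ACSS1 in both groups and LPIN1 in the cold lambs kept their calls in all 23 alternatives, which also cover scaling, filter and test. In the cold lambs ACSS2 kept its call in 22, ELOVL5 and ME1 in 19, AGPAT2 in 17 and LPIN2 in 14. For the AT lambs it was 20 for LPIN2 and 16 each for LPIN1, AGPAT2 and ME1. With TMM or median-of-ratios scaling ACSS1 was the only member called in the AT lambs, so that the other calls there were lost.

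Passing by adjusted p-value alone were ACLY (log2FC -0.59 in the cold and -0.53 in the AT lambs), AGPAT3 (-0.88 and -0.97) and, in the cold lambs, GPAT4 (-0.68). FASN had values of 0.03 and -0.03 with SEs of 0.26 and 0.26, and THRSP of 0.22 and 0.28. The 2 highest estimates were those of PCK1 (3.85 in the cold and 4.00 in the AT lambs, adjusted p-values 0.104 and 0.0891), which had 0 and 7.9 normalized counts in the controls used, and AQP7 in the AT lambs (3.24). That of AQP7 did not pass the adjusted p-value either. AQP7 had 1302 normalized counts in AT 3 and 33.4 to 339.5 in the other AT lambs, against 49.9 in Control 1 and 21.2 in Control 3. When AT 3 and Control 1 were left out and Control 2 entered, an alternative chosen after seeing the marker sums, 9 of 36 members were called in the cold and 6 in the AT lambs, against 11.5% and 10.7% of all genes in that fit. GPD1 was then called in both comparisons (log2FC -1.46 in the cold and -1.45 in the AT lambs), while AGPAT2 and ME1 were called in neither and ACSS2 not in the AT lambs (adjusted p-value 0.0651).

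Whether the effects differed between tissues was tested in the fit of both. No member was called for a different effect by edgeR, against 1.4% of all genes for AT against control, 0.235% for cold against control and 0.00588% for cold against AT. At an unadjusted p-value under 0.05 there were 8, 8 and 3 of 37 members, against 18.8%, 12.8% and 6.89% of all genes. DESeq2 called 5 (THRSP, ACSS2, ACSS1, SCD and ME1), 3 (THRSP, ACSS2 and LPIN1) and 0, each with the higher log2FC in BAT, against 5.43%, 1.88% and 0.401% of all genes. The lowest p-values in both comparisons with control were those of THRSP and ACSS2. For THRSP the log2FC in BAT exceeded that in thyroid tissue by 3.26 in the AT lambs (adjusted p-value 0.0718) and by 3.39 in the cold lambs (0.136), and for ACSS2 by 2.22 (0.0724) and 2.01 (0.179). The difference in the effects on these genes was therefore called by DESeq2 and not by edgeR.

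Further genes of the same pathways were read from a list of 56, of which 54 were in the tables. In BAT 50 were tested. None was called for cold against AT or cold against control by edgeR, with 7 and 6 at an unadjusted p-value under 0.05, against 12.3% and 18.1% of all genes. For AT against control 2 of the 50 were called (4%), a share below the 6.07% of all genes. MID1IP1, whose protein partners that of THRSP and promotes the polymerization of acetyl-CoA carboxylase, was higher (log2FC 1.51, adjusted p-value 0.0293). The desaturase relative FADS3 was lower (-1.50, adjusted p-value 0.00708). In thyroid tissue 51 were tested and 0 were called for cold against AT, with 4 at an unadjusted p-value under 0.05, against 5.4% of all genes. In the cold lambs 5 of 51 were lower than in the controls and none higher, and in the AT lambs 6 were lower and none higher, against 6.15% and 5.98% of all genes called lower and 8.04% and 7.8% called in either direction. These included the cytosolic isocitrate dehydrogenase IDH1 (log2FC -1.43, adjusted p-value 0.00327 in the cold lambs and -1.82, adjusted p-value 0.00104 in the AT lambs), the acyl-CoA synthetase ACSL4 (-1.16, adjusted p-value 0.0174, and -1.25, adjusted p-value 0.0111) and HSD17B12 of the elongation cycle (-1.02, adjusted p-value 0.0351, and -1.06, adjusted p-value 0.0274). MECR, of mitochondrial fatty acid synthesis, was called in the cold lambs only by this threshold (-1.01, adjusted p-value 0.00496), and ELOVL2 (-1.87, adjusted p-value 0.0233) and HACD3 (-1.01, adjusted p-value 0.00754) in the AT lambs, with no test of the difference between groups for these genes. Between tissues, 18 of 52 were higher and 7 lower in BAT, against 25.5% and 14.1% of all genes.

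FASN was set against its regulators and SCD over the 12 treated lambs in BAT, 4 relations in all. Pearson's r was 0.61 for THRSP (permutation p-value 0.0359, adjusted 0.0718; Spearman's rho 0.55, permutation p-value 0.0666), 0.65 for MLXIPL (0.0216, adjusted 0.0718; rho 0.45, 0.148), 0.27 for SREBF1 (0.389, adjusted 0.519; rho 0.28, 0.380) and 0.13 for SCD (0.680, adjusted 0.680; rho -0.08, 0.818). No relation passed after adjustment. Without the 2 lambs farthest from the median, r was 0.45 for THRSP, 0.65 for MLXIPL, 0.65 for SREBF1 and 0.05 for SCD. Within the cold lambs r was 0.63, 0.57, 0.39 and 0.26 in the order THRSP, MLXIPL, SREBF1 and SCD, and within the AT lambs 0.67, 0.72, 0.18 and -0.09, with 6 lambs in each and no adjusted permutation p-value of r under 0.264. All values of a lamb share its size factor, and with TMM scaling r was 0.43 for THRSP and 0.49 for MLXIPL.

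Some members share exon bases with other genes, and their counts are less certain, since the strand setting of the counting is not given in the sources used here. BSCL2 shares 48.9% of its exon bases with LRRN4CL on the same strand and 3.11% with GNG3, LPIN3 shares 12.9% with EMILIN3, and GPD1 shares 10.4% with LOC101119459 on the same strand. Reads that map to several places were counted.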

How the data were processed

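Gene counts of BAT and thyroid tissue from 15 lambs were used as deposited. The authors trimmed reads (Trimmomatic 0.39, quality checked with FastQC 0.11.9), aligned them with STAR 2.7.7a to Oar_rambouillet_v1.0 and counted them per gene with featureCounts of Subread 2.0.0, giving raw, unnormalized counts. Chromosome numbers were assigned through gene names in a RefSeq table, in which all 38 members were found.

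Counts were fitted with edgeR 4.0.16 (R 4.3.3; robust quasi-likelihood, two-sided, Benjamini-Hochberg adjustment over all genes tested), with 3 groups per tissue in 1 fit and size factors from ACTB, RPL19 and HUWE1. Control 2 was left out as the study did, the lamb being identified by matching the study's listed normalized counts to the libraries. Tissues were compared in a joint fit with the lamb, given by the number in the titles, as a block. DESeq2 1.42.0 was an alternative. The fit was run on simulated data for cold against AT and for the tissue difference, and not for comparisons with control. The reference genes were held at their expected counts there, so that errors of scaling were not covered. Alternatives comprised scaling, filters, controls, groups fitted, RNA integrity number and each lamb left out. Where Control 1 or Control 3 was left out, Control 2 was entered. The alternative without AT 3 and Control 1 in thyroid tissue was chosen after seeing the data.

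The members and lists were chosen with earlier results of these data known. Values per lamb were given for members called within a tissue and the 4 lowest p-values of cold against AT in BAT, and others by range. A few further values per lamb (DGAT1, FASN, GPD1, ELOVL3) were named after they were seen. No sequences or promoter motifs were analysed. Some results on the further pathway genes are not reported here. Depth was 25062784 to 37025998 reads per library, and lambs being separate animals, their spread includes that between animals.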

Additional observations from a re-analysis of the deposited data

Results flagged for a closer look

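Groups of 6 lambs were searched for a highest or lowest lamb whose gap to the next exceeded Dixon's critical value. Of 146 groups tested, 21 (14.4%) held such a lamb, and over all genes tested in the same way 11.1% of 62054 groups did. For independent, normally distributed values chance gives about 1 in 20, but these were untransformed counts of genes that share lambs, so that the number is not read against that rate. In thyroid tissue 10 of the 21 were the highest value of AT 3, the library with the highest skeletal muscle sum, whose part was not tested gene by gene. They were GPD1 at 10178 normalized counts, GPAT4 at 3834, ACACB at 2332, ACSS2 at 2021, PCK2 at 1613, AGPAT3 at 1570.1, AQP7 at 1302, GPAT3 at 996, ME1 at 870.1 and LPIN1 at 523. Also in thyroid tissue, SCD was high in Cold 2 at 181, BSCL2 was high in Cold 3 at 859.7 and SCD5 was low in Cold 5 at 52.6.

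In BAT, 3 of the values were the highest of the cold lambs and belonged to Cold 1, with SREBF1 at 1968, AGPAT2 at 4400 and AQP7 at 2765 normalized counts. ELOVL1 was high in Cold 3 at 854 and LPIN2 was low in Cold 6 at 364. Among the AT lambs, ACACB was high in AT 4 at 1816, THRSP was high in AT 5 at 1839 and SLC25A1 was low in AT 6 at 451.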

How the results depend on the processing

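Leaving out each treated lamb in turn gave 0 to 3 called members in BAT for cold against AT (0 to 0.674% of all genes). It gave 0 to 2 for cold against control (0.673 to 2.76%) and 2 to 5 for AT against control (4.45 to 8.07%). With Control 2 in place of Control 1 or Control 3, these were 0 and 0 (0%), 5 and 6 (5.94 and 6.64%) and 4 and 5 (9.21 and 8.14%). In thyroid tissue, leaving out treated lambs gave 0 (0%), 6 to 8 (6.44 to 10.8%) and 4 to 9 (6.36 to 12.8%) in the same order. With Control 2 in place of either control they were 0 and 0 (0%), 7 and 5 (9.91 and 8.63%) and 3 and 3 (8.83 and 7.21%). Fitting only the groups compared gave 0 members in BAT and 2 in thyroid tissue for AT against control (3.27% and 4.42% of all genes). With edgeR's filterByExpr, 2 were called in BAT for cold against control (1.09%). With TMM or median-of-ratios scaling, thyroid tissue had 4 members called for cold against control (4.91% or 4.89% of all genes). For AT against control 1 was called (4.61% or 4.58%). By DESeq2, 5 (AT against control) and 3 (cold against control) members differed in effect between tissues (5.43% and 1.88% of all genes). With all 3 controls, 1 member did (AT against control, 3.09%). With Control 2 in place of Control 1, 1 did in each comparison (10.2% and 3.42%). With Control 2 in place of Control 3, 0 did (1.47% and 0.147%). The cause of these changes was not tested. In BAT, ME1 for AT against control turned from a log2FC of 0.08 to -1.81 (Controls 2 and 3) and -1.79 (Controls 1 and 2). SCD in BAT for cold against control turned from 0.06 to -3.11 and -3.08 in these fits. Over all fits with a lamb left out or replaced, the range of SCD was -3.11 to 0.24. With Control 2 in place of Control 3, AGPAT2 in thyroid tissue turned to 0.14 (cold) and 0.25 (AT) and ACSS2 to 0.012 (AT). Over all fits with a lamb left out or replaced, their ranges were -1.41 to 0.14, -1.27 to 0.25 and -1.35 to 0.012. With AT 3 and Control 1 out, PCK2 in thyroid tissue for AT against control turned to -2.06. Without the lamb block, 28 members in place of 29 differed between tissues (39.2% in place of 39.6% of all genes). No comparison within a tissue has pairs. Promoter motifs were not searched. In BAT, the 8093700 to 18276329 reads outside the 2 abundant loci limit what can be seen of members with low counts.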
